A study of Mus musculus with 6 samples.

Results

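The genes described here were the chemokines and their receptors, chosen by symbol alone as every row named Cxcl, Ccl, Cx3cl, Xcl, Ccr, Cxcr, Cx3cr, Xcr or Ackr with its number. The rule found 61 of the 53819 genes listed, of which 39 were ligands and 22 were receptors. They were followed in bulk RNA-seq of flexor digitorum longus (FDL) tendons of the mouse hind paw, harvested at day 28 after the tendon was cut and repaired, with 3 WT and 3 DTRScxLin mice and 1 tendon per library. Both groups carried the DTR F/+ allele, which gives cells a receptor for diphtheria toxin (DT) once Cre has acted, and both received 5 daily injections of 100 ng DT from day 14 to day 18. DTRScxLin mice were Scx-Cre+, with a non-inducible Cre under the control of Scx, the gene of the tendon transcription factor scleraxis, and WT mice were Scx-Cre-. Surgery was done at 10 to 12 weeks of age, and male and female mice were used. The sample titles count 28 days from depletion, whereas the protocol counts them from surgery, and the latter was followed here. The comparison asks how RNA in the healing tendon differed once cells of the Scx lineage had been depleted. The remaining number of such cells was not measured in these libraries, which carried no lineage reporter. The WT libraries held 45184255, 47570157 and 44104578 counts and the DTRScxLin libraries 47125566, 48854310 and 42744138 (replicates 1 to 3), so that counting error was small for all but the rarest members. In bulk tissue, fewer cells of a type and less RNA per cell cannot be told apart.

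Chemokines are small secreted proteins that steer leukocytes along concentration gradients, and they are named CXC, CC, CX3C or XC for the spacing of their first cysteines. They act on G protein-coupled receptors of matching name, several ligands often sharing a receptor, while the atypical receptors (Ackr genes) bind chemokines without classical G protein signalling and mostly remove them. In an injured tendon, ligands for the receptor Cxcr2 are best known for drawing neutrophils, ligands for Ccr2 for drawing monocytes, and Cxcl12 for holding cells that carry Cxcr4.

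Of all the roles, the largest median fold difference was that of the CXC ligands with the Glu-Leu-Arg motif (ELR), and the promoters of 3 of these genes are shown first because they share a sequence. Each line gives the 120 bases before the start site in RefSeq (build GRCm38.p6, plus strand, 5′ to 3′), and the capitals mark GGGAATTTCCC, the longest run that the 3 windows share, which holds a form of the kappaB motif bound by NF-kB factors.
Cxcl1, chr5:90891125-90891244: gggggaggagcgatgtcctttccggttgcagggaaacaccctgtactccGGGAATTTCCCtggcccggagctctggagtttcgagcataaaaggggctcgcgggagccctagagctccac
Cxcl2, chr5:90903779-90903898: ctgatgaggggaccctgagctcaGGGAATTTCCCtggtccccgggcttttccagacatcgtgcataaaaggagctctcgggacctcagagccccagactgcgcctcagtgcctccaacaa
Cxcl3, chr5:90785981-90786100: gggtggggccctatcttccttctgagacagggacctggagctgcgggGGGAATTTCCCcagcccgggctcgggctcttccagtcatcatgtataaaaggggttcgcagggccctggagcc
The 5′ end of the motif lay 71 bases before the start site of Cxcl1, 97 before that of Cxcl2 and 73 before that of Cxcl3. On either strand, these 11 bases were found in 14 of 32851 promoter windows of 300 bases, which is 0.0426%, and among the 46 members with a window in those 3 genes alone. Cxcl5, another ELR ligand, had no window and was not searched. The 3 genes are related neighbours on chromosome 5 and the run was taken from them, so the match describes letters they share and not binding.

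Of the 61 members, 56 had at least 1 count. Ccl21b, Ccl21d, Ccl27b, Cxcl15 and Ccl26 were at 0 in every library, where 3 counts over the 6 libraries is the upper limit that a count of 0 allows (0.0109 CPM, counting error only). Ccl21b, Ccl21d and Ccl27b have near-identical copies in Ccl21a and Ccl27a, so their reads could be assigned elsewhere or dropped. A further 10 members (Ccl1, Ccl19, Cxcl17, Xcl1, Ccr4, Ccr6, Ccr8, Ccr10, Cxcr1 and Cxcr5) fell below the filter on low counts, and 46 were tested, namely 30 ligands and 16 receptors. Ccl20 reached the level of the filter in 1 WT library and 3 DTRScxLin libraries, so it was tested only because of its DTRScxLin values. Members named with values were those at an unadjusted p under 0.05 with their main receptors or ligands, and those with the highest counts. Any other member given with values was chosen after these were seen. Levels are given as counts normalized by TMM and scaled to the mean library size, always in the order of replicates 1, 2 and 3.

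The tendon genes Scx and Tnmd (tenomodulin) were at 2199, 2698 and 3066 and at 50448, 58498 and 76083 normalized counts across the WT tendons, and at 3484, 3408 and 3533 and at 60499.7, 92237 and 76025 across the DTRScxLin tendons, so tendon RNA was present in every library. Scx, whose lineage was the target of depletion, was higher in each DTRScxLin library than in any WT library (log2 fold change 0.39, edgeR unadjusted p = 0.0141, adjusted p = 0.371), and its level thus showed no loss of Scx RNA at day 28. RNA of neighbouring tissues was present too. The sums of 10 tendon genes were 1007146, 1128325 and 1207119.5 normalized counts in the WT tendons and 1537023, 1233033 and 1371501 in the DTRScxLin tendons. The sums of 20 skeletal muscle genes were 1267963, 1117669.9 and 924079 in the WT tendons and 164900.0, 1111377 and 281088 in the DTRScxLin tendons, so that WT replicate 1 had more muscle than tendon counts and DTRScxLin replicates 1 and 3 had the least muscle RNA. All 20 muscle genes were fitted lower and 0 were called by edgeR, with 13.1% of the sum from the myosin gene Myh1, and the part of muscle RNA in the values of Scx and the tendon genes was not tested. WT replicate 1 also had the most keratinocyte RNA, with 149626 over 10 genes.

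Among the tested members, 25 were fitted higher and 21 lower in DTRScxLin tendons, and the median log2 fold change was 0.0047 for ligands and 0.066 for receptors, against 0.0082 for all 17496 genes tested. edgeR's quasi-likelihood test with Benjamini-Hochberg adjustment called 0 members in either direction, as it did for 0% of all genes, and the lowest adjusted p of a member was 0.272. At an unadjusted p under 0.05, 5 members were higher (10.9%, against 5.52% of all genes) and 2 were lower (4.35%, against 5.45%). DESeq2, the study's own tool, called 3 members higher, Cxcl1 and Cxcl3 among them, and 1 lower (Ccl24) of 45 with an adjusted p, against 1.12% and 1.53% of all genes. In 5 members each DTRScxLin library lay above each WT library (10.9%, against 9.06% of all genes), and in 3 each lay below (6.52%, against 7.74%), shares near those of all genes. Ccl20, tested only because of its DTRScxLin values, was among the 5 in both counts, which were 4 of 45 (8.89%) without it. With 3 animals per group, p-values measure the spread between these tendons only. All members together took 0.202%, 0.171% and 0.172% of the counts of the WT libraries and 0.191%, 0.167% and 0.171% of those of the DTRScxLin libraries.

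**Figure D1:**
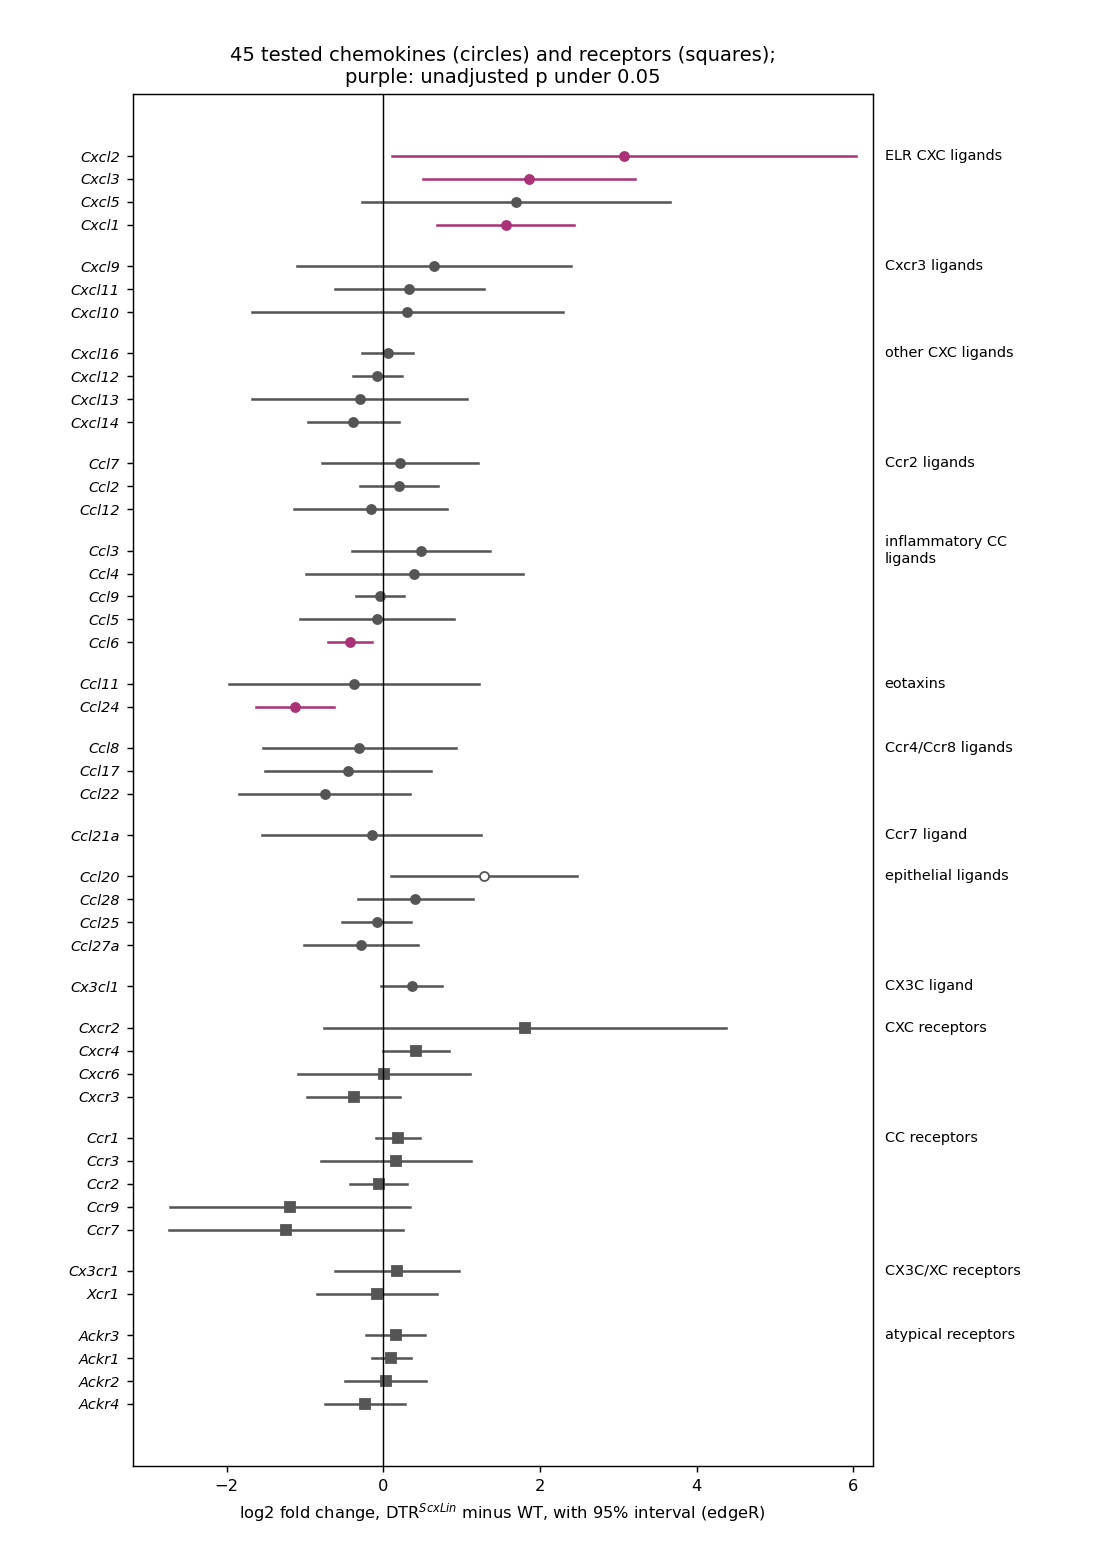
Log2 fold change (DTRScxLin minus WT) with its 95% interval from edgeR for 45 of the 46 tested members, circles for ligands and squares for receptors, grouped by role from top to bottom. The 5 plotted members at an unadjusted p under 0.05 are in purple, Ccl20 (open circle) is left in grey because the filter kept it for its DTRScxLin values, and the 4 ELR ligands at the top are the group farthest to the right, with a median of 1.78.

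The ELR CXC ligands, which act on Cxcr2 and attract neutrophils, were fitted higher in DTRScxLin tendons for all 4 members tested (Cxcl1, Cxcl2, Cxcl3 and Cxcl5), and edgeR called 0 of them. In 3 of the 4 each DTRScxLin library lay above each WT library, as in 9.06% of all genes. Their summed normalized counts were 442, 697 and 284 in the WT tendons and 3235, 1721 and 739 in the DTRScxLin tendons, or 474 ± 209 against 1899 ± 1257 (SD, n = 3). Each DTRScxLin sum was above each WT sum, and the lowest DTRScxLin sum was close to the highest WT sum. Ppbp, an ELR ligand whose symbol lies outside the naming rule, was fitted lower, with overlapping groups (log2 fold change -0.39).

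Cxcl1, an early neutrophil attractant made by stromal cells and macrophages, had 100.4, 171 and 118 normalized counts in the WT tendons and 329, 585 and 237 in the DTRScxLin tendons. All 3 DTRScxLin libraries were above all 3 WT libraries, and the highest was DTRScxLin replicate 2. The group values were 129.6 ± 36.9 and 384 ± 180.0 (SD, n = 3), a log2 fold change of 1.56 (standard error 0.37, 95% interval 0.69 to 2.44). It was 1 of the members called by DESeq2 (adjusted p = 0.000967) but not by edgeR (adjusted p = 0.301). Its log2 fold change stayed between 1.12 and 1.81 whichever library was left out.

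Cxcl2, the close relative that macrophages and neutrophils themselves release, had 89.2, 86.5 and 44.7 normalized counts in the WT tendons and 1526, 195 and 146 in the DTRScxLin tendons. The groups did not overlap, but DTRScxLin replicate 1 stood far above the other 2. The log2 fold change of 3.07 was therefore imprecise (standard error 1.14, interval 0.11 to 6.04, edgeR adjusted p = 0.452), and without DTRScxLin replicate 1 it was 1.21. DESeq2 gave no p for Cxcl2, since its filter on outlying counts removed the gene. Cxcl3, the least abundant of the 4 per kilobase of exon, had 19.3, 18.8 and 28.1 normalized counts in the WT tendons and 157, 41.1 and 44.2 in the DTRScxLin tendons. The groups were again apart and DTRScxLin replicate 1 was again the highest. For Cxcl3 the log2 fold change was 1.86 (standard error 0.58, edgeR adjusted p = 0.369, DESeq2 adjusted p = 0.0458), which was 0.95 without that library.

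Cxcl5, an ELR ligand known from epithelial and stromal cells, had 233, 421 and 93.6 normalized counts in the WT tendons and 1224, 900.3 and 312 in the DTRScxLin tendons. The lowest DTRScxLin library lay below the highest WT library, so the groups overlapped. Its log2 fold change was 1.70 with an interval of -0.27 to 3.66 (edgeR adjusted p = 0.486), and it lay between 1.27 and 2.31 with any library left out, the highest without WT replicate 2. Per kilobase of exon, Cxcl5 had the highest mean level of the 4 in either group. In WT it was at 134 normalized counts, ahead of Cxcl1 at 69.1, Cxcl2 at 35.5 and Cxcl3 at 6.30. In DTRScxLin it was at 436, ahead of Cxcl2 at 301, Cxcl1 at 205 and Cxcl3 at 23.1, where the place of Cxcl2 rested on replicate 1. The lengths joined the exons of all annotated transcripts, which gave 1 block each for Cxcl1, Cxcl2 and Cxcl3, so these levels depend on the annotation. Mean normalized counts not divided by length stood in the same order in each group.

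Cxcr2, the receptor of these ligands and itself a neutrophil gene, had 83.1, 54.5 and 29.1 normalized counts in the WT tendons and 468, 77.5 and 43.2 in the DTRScxLin tendons. DTRScxLin replicate 1 held most of the difference, and the other 2 DTRScxLin libraries lay within the WT range. The log2 fold change was 1.81 with an interval of -0.75 to 4.37 (edgeR adjusted p = 0.543), and it was 0.11 without DTRScxLin replicate 1. Cxcr1, the other ELR receptor, was below the filter, with at most 4.13 normalized counts in any library.

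**Figure D2:**
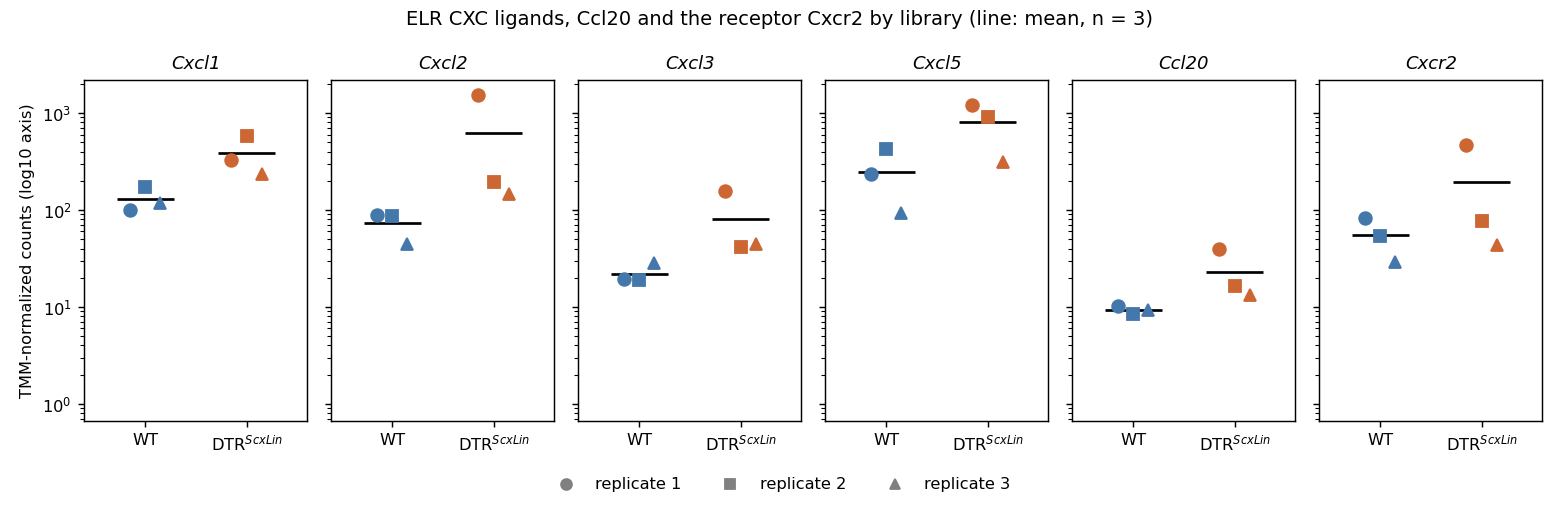
TMM-normalized counts of the 4 ELR ligands, Ccl20 and Cxcr2 in each library (log10 axis shared by the panels), with the symbol giving the replicate and the line the mean of 3. Cxcl1 in DTRScxLin is spread over 237 to 585, all above WT, while Cxcl2 and Cxcr2 are drawn up by DTRScxLin replicate 1 at 1526 and 468.

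Neutrophil markers moved with these ligands in DTRScxLin replicate 1. The sum of 13 neutrophil genes was 3570.3, 2272 and 1181 normalized counts in the WT tendons and 16018, 2719 and 2155 in the DTRScxLin tendons, and Mmp9, a protease that macrophages also make, was the most abundant with 30.3% of the sum. S100a8 and S100a9, calcium-binding proteins abundant in neutrophils, were at 3520.2 and 5446 in that library, against at most 468 and 562 in WT. Of the 7 neutrophil genes tested, all were fitted higher, with a median log2 fold change of 1.25, and 0 were called by edgeR or were at an unadjusted p under 0.05. Granule and surface genes differed in level. Ly6g was at 0 in WT and at 4.13, 0.957 and 1.03 in the DTRScxLin tendons, and Mpo, Elane, Ngp and Ltf had at most 6.20 in any library. Camp reached 21.7, Cd177 34.1 and Mmp8 83.7, each in DTRScxLin replicate 1. Camp was nearly as high in DTRScxLin replicate 3 (21.6), and Cd177 in WT replicate 1 (31.4). Csf3r, the G-CSF receptor gene, had 825, 695 and 542 in the WT tendons and 2263, 736 and 677 in the DTRScxLin tendons. In DTRScxLin replicates 2 and 3 the neutrophil sum lay within the WT range, while Cxcl1, Cxcl2 and Cxcl3 were above WT. The part of neutrophils in the difference of the ELR ligands was not tested.

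Genes of the NF-kB and IL-1/IL-17 axis, which is known to switch on ELR ligands, were followed as a list of 20 genes, of which 18 were tested. Of these, 14 were fitted higher and 4 lower, with a median log2 fold change of 0.14 against 0.0082 for all genes, and edgeR called 0. At an unadjusted p under 0.05 there were 3 higher and 0 lower, against 5.52% and 5.45% of all genes, namely Ptgs2 (prostaglandin synthase), Lif (an IL-6 family cytokine) and Tnf. Ptgs2 had 311, 156 and 114 normalized counts in the WT tendons and 1023, 516 and 474 in the DTRScxLin tendons, Lif had 278, 221 and 213 in WT and 481, 334 and 552 in DTRScxLin, and Tnf had 90.2, 67.7 and 84.2 in WT and 164, 123 and 108 in DTRScxLin. In each of these 3 genes all DTRScxLin libraries were above all WT libraries. The 3 were picked by their p-values, which favours separated groups, so the 9.06% of all genes is not a like comparison. The log2 fold changes were 1.79, 0.94 and 0.70, with edgeR adjusted p-values of 0.354, 0.293 and 0.419. DESeq2 called the first 2 higher (adjusted p = 0.000415 and 0.0063), against 1.12% of all genes. Il1b, the gene of interleukin-1 beta, had 635, 427 and 193 in the WT tendons and 3899, 909 and 335 in the DTRScxLin tendons, with DTRScxLin replicate 1 again the highest and the groups overlapping (log2 fold change 2.03, edgeR adjusted p = 0.537). Nfkb1, Rela, Relb and Nfkb2, which encode NF-kB subunits, had log2 fold changes of -0.12, -0.0026, 0.04 and 0.20. For Nfkb2 only DTRScxLin replicate 1 lay above the WT range (2298, against at most 1608 in WT).

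The interferon-induced ligands of Cxcr3, which attract T and NK cells, were fitted higher for all 3 members, but the groups overlapped in each. Cxcl10 had 769, 107 and 201 normalized counts in the WT tendons and 471, 344 and 519 in the DTRScxLin tendons, and Cxcl9 had 352, 83.6 and 125 in WT and 382, 118 and 377 in DTRScxLin. The highest Cxcl10 value was in WT replicate 1 and the 2 lowest were in the other WT libraries, so the spread within WT exceeded the difference of the means. Their log2 fold changes were 0.31 (interval -1.68 to 2.29) and 0.64 (interval -1.10 to 2.39). Exons of Cxcl10 overlap those of Art3 on the opposite strand. Cxcr3, the receptor, had 136, 125 and 121 in the WT tendons and 70.2, 115 and 109 in the DTRScxLin tendons. All 3 DTRScxLin libraries were below all 3 WT libraries, by little in 2 of them, and the log2 fold change was -0.38 with an interval of -0.97 to 0.21 (edgeR adjusted p = 0.597). Over 14 interferon response genes the median log2 fold change was 0.15, with 11 fitted higher, 3 lower and 0 at an unadjusted p under 0.05.

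Cxcl12, the stromal ligand of Cxcr4, had the highest count of all members, with 25642, 25286 and 26893 normalized counts in the WT tendons and 29031, 21614 and 23368 in the DTRScxLin tendons. The groups overlapped, and its log2 fold change was -0.075 with an interval of -0.39 to 0.24, so a difference beyond that interval was not seen in either direction. Cxcr4, its signalling receptor on leukocytes and progenitor cells, had 1416, 1134 and 1056 in the WT tendons and 1996, 1543 and 1287 in the DTRScxLin tendons. DTRScxLin replicates 1 and 2 were above every WT library and replicate 3 was within the WT range, with a log2 fold change of 0.42 and an interval of -0.01 to 0.84 (edgeR adjusted p = 0.463). Ackr3, the atypical receptor that takes up Cxcl12, had 7253, 8461 and 8218 in the WT tendons and 7781, 11284 and 7706 in the DTRScxLin tendons, and only DTRScxLin replicate 2 lay outside the WT range (log2 fold change 0.16, interval -0.22 to 0.54). Cxcl14, a CXC ligand of fibroblasts and epithelia, had 7438, 4640.4 and 4332 in the WT tendons and 4967, 3486 and 4133 in the DTRScxLin tendons, with the highest value in WT replicate 1 (log2 fold change -0.39, interval -0.97 to 0.19, and -0.099 without that library). Cxcl16, a membrane-bound ligand of macrophages that is recognised by Cxcr6, had 5135, 3962 and 4237 in WT and 5401, 3967 and 4503 in DTRScxLin, which overlapped (log2 fold change 0.054, interval -0.28 to 0.39). Exons of Cxcl16 overlap those of Zmynd15 on the opposite strand over 552 bases.

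The Ccr2 ligands, which recruit monocytes from blood, showed no separation of the groups. Ccl2 had 1444, 988 and 811 normalized counts in the WT tendons and 1395, 1185 and 1149 in the DTRScxLin tendons, and the ranges for Ccl7 and Ccl12 likewise overlapped. In all 3 ligands replicate 1 was the highest library of either group. Their log2 fold changes were 0.20, 0.22 and -0.16, and the interval for Ccl2 was -0.30 to 0.70. Ccr2, the monocyte receptor, had 8808, 5632 and 7461 in the WT tendons and 7284, 7135 and 6612 in the DTRScxLin tendons, with every DTRScxLin value inside the WT range (log2 fold change -0.061, interval -0.43 to 0.30).

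Ccl6, a CC ligand made by myeloid cells of the mouse, had 4310.3, 3763 and 3226 normalized counts in the WT tendons and 2669, 3077 and 2692 in the DTRScxLin tendons. Each DTRScxLin library was below each WT library. The log2 fold change was -0.42 (standard error 0.12, interval -0.71 to -0.14, edgeR adjusted p = 0.352, DESeq2 adjusted p = 0.0955). Ccl9, its relative and a ligand of Ccr1, had 3565, 3242 and 2791 in the WT tendons and 3565, 3053 and 2707 in the DTRScxLin tendons, so the ranges overlapped (log2 fold change -0.045, interval -0.35 to 0.26). Ccr1, their receptor on monocytes and neutrophils, had 2416, 2185 and 1993 in the WT tendons and 2797, 2549 and 2169.9 in the DTRScxLin tendons. Its groups overlapped as well, at a log2 fold change of 0.19 (interval -0.09 to 0.46).

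Ccl3, a macrophage inflammatory protein, had 192, 188 and 166 normalized counts in the WT tendons and 426, 172 and 166 in the DTRScxLin tendons, and Ccl4, released with it, had 89.2, 53.6 and 60.3 in WT and 177, 53.6 and 38.03 in DTRScxLin. In both ligands only DTRScxLin replicate 1 was above the WT range, and the log2 fold changes of 0.48 and 0.40 became -0.11 and -0.57 without it. Ccl5, made mainly by T and NK cells, had 470.4, 170.1 and 236 in WT and 303, 187 and 341 in DTRScxLin, with overlapping groups and the highest value in WT replicate 1 (log2 fold change -0.081, interval -1.07 to 0.90).

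The sum of 14 macrophage and monocyte genes overlapped between the groups, and it was 166217, 133398 and 161343 normalized counts in the WT tendons and 163919, 164703 and 141189 in the DTRScxLin tendons, with 64.1% of it from the lysozyme gene Lyz2. Of these 14 genes, 6 were fitted higher and 8 lower, edgeR called 0, and 2 were lower at an unadjusted p under 0.05, against 5.45% of all genes. Cd163 was the 1 gene of the list whose groups did not overlap. The 2 genes were Cd163, a scavenger receptor of resident macrophages, and Lyve1, which resident macrophages share with lymphatic endothelium. Cd163 had 2510.0, 2708 and 2124 in the WT tendons and 491, 1123 and 945 in the DTRScxLin tendons, (log2 fold change -1.52, edgeR adjusted p = 0.293, DESeq2 adjusted p = 2.7e-06).

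The eotaxins attract eosinophils through Ccr3, and both tested members were fitted lower. Ccl24, an eotaxin that alternatively activated macrophages release, had 505, 389 and 613 normalized counts in the WT tendons and 191, 267 and 234 in the DTRScxLin tendons. Each DTRScxLin library was below each WT library. The group values were 502 ± 112 and 231 ± 38.05 (SD, n = 3), a log2 fold change of -1.12 (standard error 0.21, interval -1.62 to -0.63). This was the lowest p among members in edgeR (adjusted p = 0.272), and DESeq2 called it (adjusted p = 0.000176). Its log2 fold change lay between -1.28 and -0.96 with any library left out. Cd163, a marker of such macrophages, was lower in the same 3 libraries, whereas Mrc1, another, had 15103, 13275 and 16579 in the WT tendons and 13854, 19421 and 14346 in the DTRScxLin tendons (log2 fold change 0.081). Mertk and Adgre1, which macrophages express more widely, had log2 fold changes of -0.028 and 0.13. Timd4, Folr2 and Lyve1, from the same macrophage list, were fitted lower, with log2 fold changes of -0.82, -0.55 and -0.56 and overlapping groups. Their edgeR unadjusted p-values were 0.0639, 0.0567 and 0.0368. The part of alternatively activated macrophages in the difference of Ccl24 was not tested.

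Ccl11, the eotaxin of fibroblasts, had 1272, 1419 and 1437 normalized counts in the WT tendons and 499, 2069.5 and 623 in the DTRScxLin tendons. DTRScxLin replicates 1 and 3 were far below the 3 close WT values, and DTRScxLin replicate 2 was above all of them. The log2 fold change was -0.37 with an interval of -1.96 to 1.22, and without DTRScxLin replicate 2 it was -1.30 and called by edgeR (adjusted p = 0.00628). In that setting edgeR called 544 of 17998 genes, 441 of them lower. Among the DTRScxLin libraries, replicate 2 was also by far the highest in skeletal muscle RNA, with a sum of 1111377 over the 20 muscle genes. The part of muscle in the value of Ccl11 was not tested. Ccr3, the eotaxin receptor, had 29.4, 32.9 and 26.0 in the WT tendons and 52.7, 22.01 and 24.7 in the DTRScxLin tendons, and the sign of its log2 fold change (0.16) turned without DTRScxLin replicate 1. Among 4 eosinophil genes, the peroxidase gene Epx was at 0 in all libraries, and the summed counts were 20.3, 22.6 and 26.0 in the WT tendons and 50.6, 11.5 and 19.5 in the DTRScxLin tendons, with 77.9% of them from Siglecf. Il5ra and Prg2, the remaining 2, were lower in each DTRScxLin library than in any WT library, at 3.04, 7.52 and 7.28 in WT and 0 in every DTRScxLin library for Il5ra, and at 2.03, 3.76 and 6.24 in WT and 0, 1.91 and 1.03 in DTRScxLin for Prg2. Both fell below the filter on low counts, with 18 and 15 counts in total, and were not tested. Of all genes tested, 7.74% were lower in this way.

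**Figure D3:**
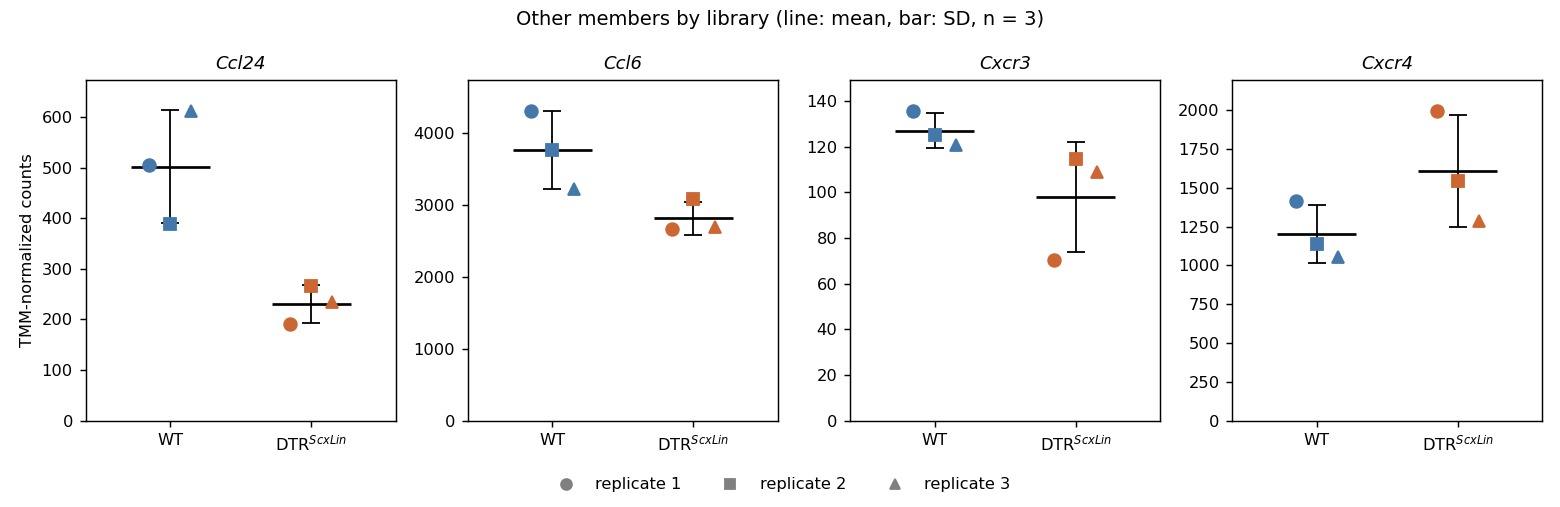
TMM-normalized counts of Ccl24, Ccl6, Cxcr3 and Cxcr4 in each library (linear axes from 0, one per panel), with the symbol giving the replicate, the line the mean and the bar the SD of 3. Ccl24, Ccl6 and Cxcr3 are lower in every DTRScxLin library than in any WT library, while Cxcr4 overlaps.

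The ligands of Ccr4 and Ccr8 were fitted lower for all 3 members tested. Ccl8 had 6145, 2103 and 3534 normalized counts in the WT tendons and 4497, 2411 and 2650.0 in the DTRScxLin tendons. The groups overlapped and replicate 1 was highest in both (log2 fold change -0.30, interval -1.54 to 0.93). Ccl22, a ligand of dendritic cells and macrophages, had 495, 134 and 274 in WT and 179, 143 and 217 in DTRScxLin, with a log2 fold change of -0.75 (interval -1.84 to 0.34). Ccr7, the receptor that guides dendritic cells and T cells to lymph nodes, had 455, 93.03 and 159 in the WT tendons and 129, 66.97 and 104 in the DTRScxLin tendons, with WT replicate 1 far above the rest (log2 fold change -1.24, interval -2.73 to 0.25). Its ligand Ccl21a, made by lymphatic endothelium, had 598, 1839 and 1579 in WT and 1647, 1286 and 696 in DTRScxLin, with no common direction (log2 fold change -0.15, interval -1.54 to 1.25). Beside these genes, the sum of 7 dendritic cell genes was 2612, 1612 and 1983 normalized counts in the WT tendons and 2072, 1448 and 1663 in the DTRScxLin tendons, most of all from Itgax (31.0%). Of the 7, 6 were fitted lower and 3 had an unadjusted p under 0.05 (Cd209a, Siglech and Batf3), against 5.45% of all genes lower, with 0 called by either tool. The part of dendritic cells in the values of Ccl22 and Ccr7 was not tested.

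Ccl20, a ligand of Ccr6 known from epithelia and activated macrophages, had 10.1, 8.46 and 9.36 normalized counts in the WT tendons and 39.2, 16.3 and 13.4 in the DTRScxLin tendons. All DTRScxLin values were above all WT values, but at the low end of what could be tested. The log2 fold change was 1.29, and 0.66 without DTRScxLin replicate 1, and it is given as a description, since the filter on low counts had kept the gene for its DTRScxLin values. Ccr6, its receptor, fell below the filter, with 10.1, 1.88 and 4.16 in the WT tendons and 2.07, 2.87 and 8.22 in the DTRScxLin tendons. Skin RNA differed between libraries, with sums of 10 keratinocyte genes of 149626, 92129 and 544 in the WT tendons and 404, 667 and 13642 in the DTRScxLin tendons. All 10 were fitted lower and 0 were called by edgeR, with 45.5% of the sum from Krt10. Of the other 3 epithelial ligands tested, Ccl27a, the keratinocyte ligand of Ccr10, had 65.9, 75.2 and 68.6 in WT and 42.4, 80.4 and 49.3 in DTRScxLin. Ccl28, a ligand of mucosal epithelia, had 54.7, 36.6 and 33.3 in WT and 51.6, 66.97 and 47.3 in DTRScxLin, and Ccl25 had 267, 235 and 270.4 in WT and 220.0, 213 and 295 in DTRScxLin. The groups overlapped in each, and the part of skin RNA in these values was not tested.

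Cx3cl1, the membrane-bound ligand fractalkine, had 419.7, 323 and 321 normalized counts in the WT tendons and 416, 439 and 514 in the DTRScxLin tendons. DTRScxLin replicates 2 and 3 were above all WT libraries and replicate 1 was just below the highest (log2 fold change 0.36, interval -0.025 to 0.75). Cx3cr1, its receptor on monocytes and tissue macrophages, had 3239.8, 2723 and 1583 in WT and 3472, 2092 and 2989 in DTRScxLin, with the lowest value in WT replicate 3 and overlapping groups (log2 fold change 0.18, interval -0.61 to 0.97). Among the remaining atypical receptors, Ackr1, Ackr2 and Ackr4 had overlapping groups and edgeR adjusted p-values from 0.701 to 0.972. The other tested members (Cxcl11, Cxcl13, Ccl17, Ccl25, Ccl28, Cxcr6, Ccr9 and Xcr1) overlapped too, with log2 fold changes from -1.19 for Ccr9 to 0.41 for Ccl28 and adjusted p-values of 0.521 to 0.997. The 10 members below the filter that had counts reached at most 18.2 normalized counts, in Cxcr5.

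On the scale of normalized counts per kilobase of exon, the highest mean levels in WT were those of Ccl8 (7686), Cxcl12 (3173), Cxcl14 (2994), Ackr3 (2383), Ccl6 (2098) and Ccl7 (1739). In DTRScxLin these were Ccl8 (6235), Cxcl12 (3018), Ackr3 (2665), Cxcl14 (2296), Ccl7 (2025) and Ccl6 (1567). Cxcl14 and Ackr3 thus stood in another order, as did Ccl6 and Ccl7. The order of Cxcl14 and Ackr3 rested on 1 library in each group, since it turned in WT without replicate 1 (2456 for Cxcl14 and 2491 for Ackr3) and in DTRScxLin without replicate 2 (2491 for Cxcl14 and 2313 for Ackr3). The order of Ccl6 and Ccl7 within a group was kept with any library of it left out, by the least in DTRScxLin without replicate 1 (1607 for Ccl6 and 1701 for Ccl7). Most of these are best known from stromal cells or macrophages. Over all 6 libraries the ELR ligands stood far lower, from 14.7 for Cxcl3 to 285 for Cxcl5, and Ccl20 was at 11.4. Thus the ligands with the largest fold differences were not those with the highest levels.

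Members also varied together between animals of one group. WT replicate 1 was the highest of the WT libraries in 29 of 46 tested members (63.0%, against 34.7% of all genes tested), and DTRScxLin replicate 1 was the highest of its group in 28 (60.9%, against 34.9%). These libraries also had the highest sums of 10 T cell genes, with 1828, 930.3 and 794 normalized counts in the WT tendons and 1718, 869.7 and 1021 in the DTRScxLin tendons. The sums of the neutrophil, dendritic cell and NF-kB axis genes were likewise highest in both. So was that of the interferon response genes, with 29347, 19278 and 20931 in the WT tendons and 28366, 22923 and 24989.7 in the DTRScxLin tendons. These lists are named because they had this pattern, which other lists did not show. Among the DTRScxLin libraries the macrophage and monocyte sum was highest in replicate 2 and the NK cell sum in replicate 3. The B cell sum was highest in WT replicate 3, and the mast cell sum in replicate 2 of both groups. Of the 10 T cell genes, 6 were fitted higher and 4 lower, and 49.0% of the sum came from Cd4, which macrophages can also express. The part of T cells or of the other listed genes in the values of the members was not tested. With both of these libraries left out, an alternative chosen after seeing the data, 0 members were called and 10 were at an unadjusted p under 0.05, 8 of them higher (17.4%, against 2.89% of all genes) and 2 lower (4.35%, against 2.68%). In that setting the groups did not overlap in 20 members, 11 of them higher and 9 lower, against 18.1% and 17% of all genes. The log2 fold changes were then 1.51 for Cxcl1 and -0.998 for Ccl24, while those of Cxcl2, Cxcl3, Ccl20, Cxcr2 and Ccl6 were nearer to 0, at 1.37, 0.86, 0.73, 0.53 and -0.28. Cxcl3 and Ccl6 were no longer at an unadjusted p under 0.05 (edgeR unadjusted p = 0.0877 and 0.080). Nor was Ccl20, which was tested only because of its DTRScxLin values.

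**Figure D4:**
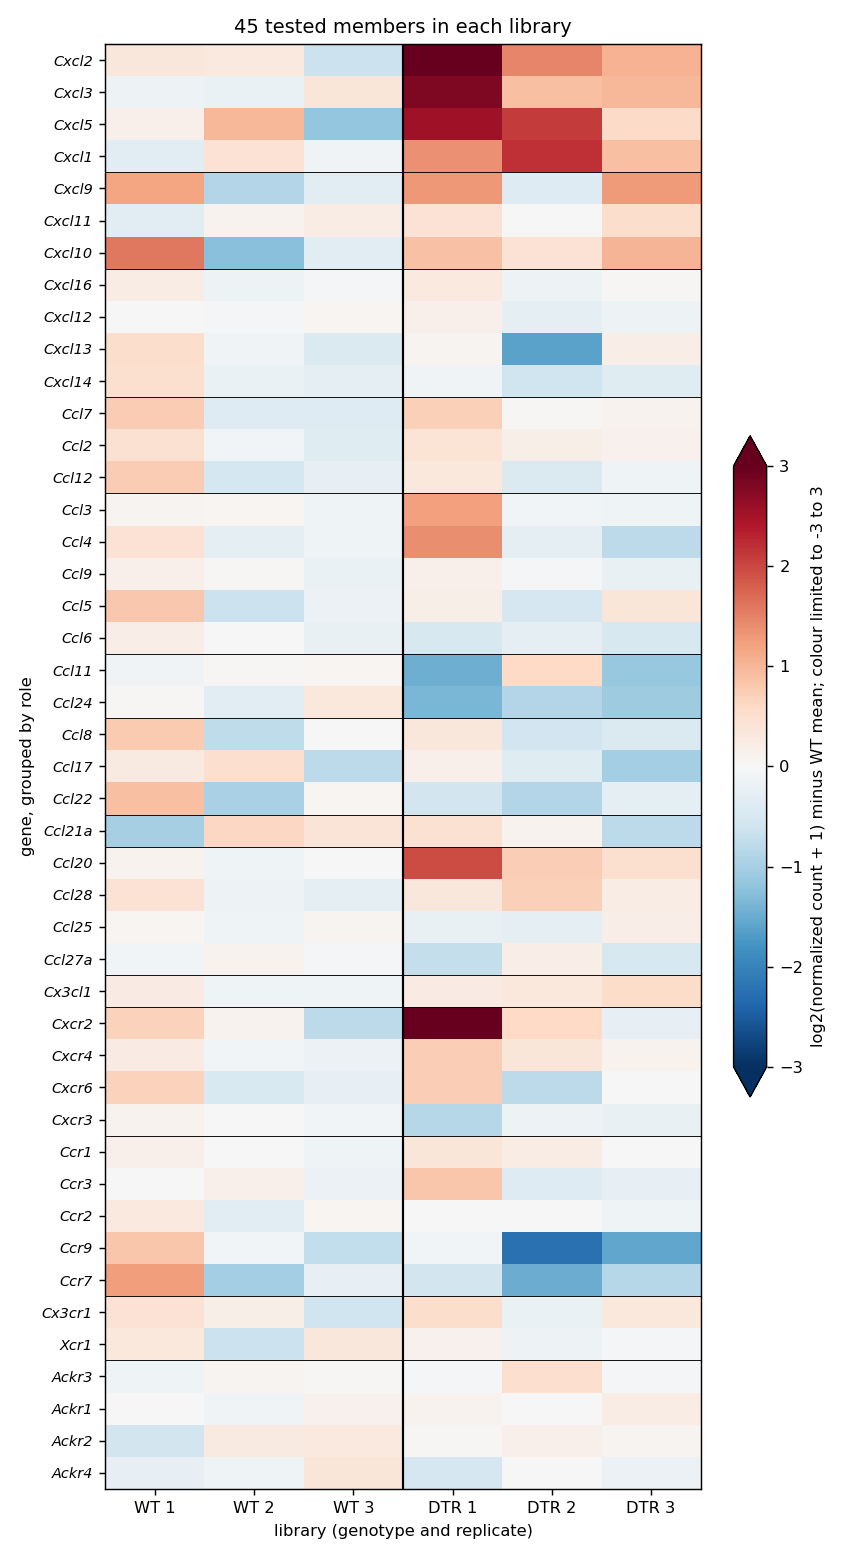
The values of 45 tested members (rows, grouped by role) in each library (columns), coloured by log2(normalized count + 1) minus the WT mean, with colours limited to -3 and 3. The ELR ligands at the top are red in the DTRScxLin columns, for Cxcl2 and Cxcl3 most of all in DTRScxLin replicate 1, and the columns of WT replicate 1 and DTRScxLin replicate 1 hold the highest values of their groups in 28 and 27 of these 45 members.

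**Figure D5:**
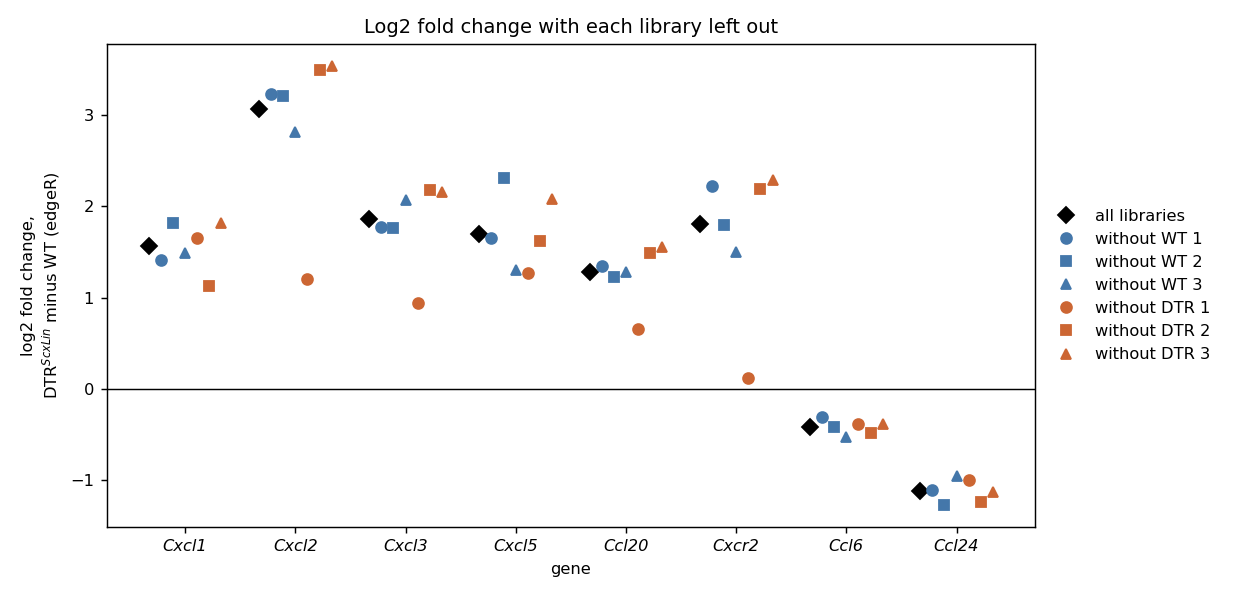
Log2 fold change (DTRScxLin minus WT, edgeR) of 8 members with all libraries and with each library left out in turn, the symbol and colour naming the library. Cxcl1 stays between 1.12 and 1.81, Cxcl5 between 1.27 and 2.31, Ccl6 between -0.53 and -0.31 and Ccl24 between -1.28 and -0.96. Cxcl2, Cxcl3, Ccl20 and Cxcr2 fall towards 0 without DTRScxLin replicate 1, to 1.21, 0.95, 0.66 and 0.11.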

How the data were processed

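RNA from 1 FDL tendon per mouse, 3 WT and 3 DTRScxLin, was sequenced as single-end reads from 200 ng total RNA. The methods name a stranded mRNA kit, and the labels add another kit. The authors ran featureCounts and deposited raw counts per gene, and they deposited a signal table in which each library's counts are divided by a size factor (0.973 to 1.06). The submitters' processing notes name DESeq2 1.22.1. The aligner, genome build and strand setting are not given in the sources used here, so overlapping, antisense and near-identical genes are uncertain, and the only coordinates printed are those of promoter windows in the RefSeq table. Columns were matched to samples by genotype and replicate number in the labels, and 0 columns were left unassigned.

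The counts were analysed in R 4.3.3. Of 53819 genes, 30758 had a count and 17496 passed filterByExpr (0.217 CPM). The test was edgeR 4.0.16's quasi-likelihood F-test with TMM normalization, genotype as the single term and all 6 libraries, adjusted by Benjamini and Hochberg over all genes at a threshold of 0.05. Standard errors are the absolute log2 fold change over the square root of F. DESeq2 1.42.0, limma 3.58.1 (voom), other normalizations and filters, the replicate number as a block, removal of muscle and keratinocyte genes and each library left out in turn were alternatives. The tests were checked on simulated data. Replicate libraries differed by a chi-square of 40.1 to 209 per degree of freedom, so none was a duplicate. With depths of 42744138 to 48854310 counts, the number of animals limits the precision.

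The members named with values were those at an unadjusted p under 0.05 or called by DESeq2, the 6 ligands and 6 receptors with the highest mean, and the main receptor or ligands of the former, and 1 member is not reported here. The members, the lists of cell type and pathway genes and these rules were chosen with earlier results of these data known. Exon lengths came from GENCODE vM21, as the union of all annotated exons of a gene, and matched 60 of 61 members by symbol. Promoter windows (250 bases before to 50 after the start site) came from RefSeq and covered 46 members.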

Additional observations from a re-analysis of the deposited data

How the results depend on the processing

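For the 22 tested genes described by the naming rule and Cxcl5, 335 fold changes under the alternatives kept their direction and side of the threshold, 10 passed it and 21 turned sign. Members called, 0 in edgeR, were 4 with DESeq2 (Cxcl1, Cxcl3 and Ccl24 among them), 4 with DESeq2 without its filter on outlying counts, 1 (Ccl24) with no filter on low counts and 0 to 2 with a library left out (Ccl24 and Ccl11 without DTRScxLin replicate 2). All genes called, 0 in edgeR (965 higher and 953 lower at an unadjusted p under 0.05), were 466, 470 and 83 under the same 3 settings and 0 to 544 with a library left out, the most without DTRScxLin replicate 2. Members at an unadjusted p under 0.05, 7 with all libraries, were 5 to 11 with a library left out (10.4% to 23.9% of members, against 5.57% to 16.6% of all genes), the most without WT replicate 1 or DTRScxLin replicate 3. Their share was below that of all genes without WT replicate 3 (10.4% against 13.1%). It was about equal to it without DTRScxLin replicate 2 (16.7% against 16.6%). Members without overlap were 11 to 15 with a library left out (22.9% to 32.6%, against 22.3% to 34% of all genes) and 20 without both first-numbered libraries, where fewer libraries make separation more frequent. The median log2 fold change ranged from -0.094 to 0.25 for ligands and from -0.092 to 0.097 for receptors. Over all genes tested, the replicate numbers did not pair the libraries (correlations of deviations of -0.188, -0.149 and -0.684 for equal numbers). Pairing was not measured over the members alone. With the replicate number as a block, 0 members and 1 gene in all were called, and 10 members were at an unadjusted p under 0.05. These included Cxcl5, Cxcr4 and Cxcl14 (edgeR unadjusted p = 0.00107, 0.0058 and 0.0256, against 0.0769, 0.0543 and 0.157 without the block). Cxcl2 and Ccl20 were no longer among them (edgeR unadjusted p = 0.07 and 0.0555). In that setting the log2 fold change of Ccl5 turned to 0.0071. Signs turned with a library left out for Cxcl12 (-0.21 to 0.013), Cxcl16 (-0.075 to 0.17), Ccl8 (-0.64 to 0.18), Ccl9 (-0.16 to 0.047), Ackr3 (-0.044 to 0.26), Ccr2 (-0.22 to 0.097), Cx3cr1 (-0.071 to 0.40), Ccr3 (-0.34 to 0.39), Ccl3 (-0.11 to 0.71), Ccl4 (-0.57 to 0.76) and Ccl5 (-0.35 to 0.45). Without both first-numbered libraries they turned for Ccr2 (0.070), Ccr3 (-0.34), Ccl3 (-0.070), Ccl4 (-0.31) and Ccl5 (0.38), and with limma-voom for Ccl5 (0.0086). Leaving out both first-numbered libraries and the DESeq2 fit without its outlier filter were settings chosen after seeing the data, and the cause of these changes was not tested.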

Other observations

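Genes tied to chemokines but outside the naming rule gave further values. Pf4 and Ppbp are CXC ligands with other symbols, best known from platelets. Pf4 had 3993, 3799 and 5054 normalized counts in the WT tendons and 3311, 4789 and 3555 in the DTRScxLin tendons, with overlapping groups (log2 fold change -0.14). Ppbp had 40.55, 79.9 and 72.8 in WT and 45.45, 52.6 and 49.3 in DTRScxLin, also overlapping (log2 fold change -0.39). Of 5 platelet genes, Gp9, Gp1bb, Gp5 and Gp6 had at most 9.40 in any library, whereas Itga2b, which made up 97.5% of their sum, had 528, 477 and 538 in WT and 668, 504 and 622 in DTRScxLin. Ccr1l1, a receptor-like neighbour of Ccr1, had 9.12, 8.46 and 10.4 in WT and 15.5, 29.7 and 27.8 in DTRScxLin, with no overlap (log2 fold change 1.37). The filter on low counts had kept this gene, like Ccl20, for its DTRScxLin values, so the difference is given as a description. Ccr1l1 is a close relative of Ccr1, and how shared reads were counted is not known. Ccrl2, an atypical receptor for the attractant chemerin, had 160.2, 146 and 109 in WT and 306, 177 and 148 in DTRScxLin, with overlapping groups. Tnfaip6, whose product binds CXC ligands and hyaluronan, had 1012, 1139 and 617 in WT and 1497, 1307 and 1081 in DTRScxLin, also overlapping. Of the 11 genes of this kind tested, 4 were fitted higher and 7 lower, and edgeR called 0. The 1 gene at an unadjusted p under 0.05 was Ccr1l1, which was tested only because of its DTRScxLin values.

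The machinery downstream of the receptors was followed as well. Of 25 genes for G proteins, phospholipases, PI3K gamma, arrestins, receptor kinases and regulators of cell migration, 16 were fitted higher and 9 lower, with a median log2 fold change of 0.050, and edgeR called 0. Gnai1, an inhibitory G protein subunit, was the 1 gene at an unadjusted p under 0.05, with 569, 509 and 371 normalized counts in the WT tendons and 327, 399.9 and 279.6 in the DTRScxLin tendons (log2 fold change -0.53, edgeR adjusted p = 0.442).

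Genes of mast cells, long-lived leukocytes of connective tissue, were fitted lower in 7 of 8. Of these, 3 were lower at an unadjusted p under 0.05 (Kit, Tpsb2 and Ms4a2), against 5.45% of all genes. DESeq2 called Kit and Ms4a2 lower (adjusted p = 0.0472 and 0.00587), against 1.53% of all genes. The sums of the 8 genes were 3825, 5009 and 4518 in the WT tendons and 2989, 3825 and 1868 in the DTRScxLin tendons. The exception was the histidine decarboxylase gene Hdc, which neutrophils also express, with 256, 203 and 110.2 in WT and 1925, 394 and 169.6 in DTRScxLin. Without Hdc the sums of the other 7 were 3569, 4806 and 4407 in the WT tendons and 1064, 3431 and 1698.0 in the DTRScxLin tendons, a removal made after the values were seen. B cell genes were fitted lower in 5 of 6 and NK cell genes higher in 3 of 5 tested, with Ms4a1 the 1 gene of these lists at an unadjusted p under 0.05 (log2 fold change -1.34). The filter on low counts had kept Ms4a1 for its WT values alone, so its difference is given as a description. Blood endothelial genes were fitted higher in 5 of 11 and lymphatic endothelial genes in 2 of 4. The single tested platelet gene, Itga2b, had a log2 fold change of 0.21. Tendon genes were fitted higher in 8 of 10, and the matrix gene Thbs4, at 243762, 245189.5 and 270001 in the WT tendons and 446604, 385974 and 357444 in the DTRScxLin tendons, was the 1 called by DESeq2 (adjusted p = 5.94e-05). Of all genes, DESeq2 called 1.12% higher.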
